A study of Mus musculus with 6 samples.

Results

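GM-CSF (granulocyte-macrophage colony-stimulating factor) and its receptor are encoded in the mouse by 4 genes, and these were followed through every cell cluster and library of the study. *Csf2* encodes the cytokine, *Csf2ra* the alpha chain of the receptor, and *Csf2rb* and *Csf2rb2* its beta chains. The members were chosen by name, 4 of the 19449 genes in the single-cell table, and all 4 were also present in the bulk table of naive microglia. Experimental autoimmune encephalomyelitis (EAE), a model of multiple sclerosis, had been induced in C57BL/6 mice by the adoptive transfer of myelin-reactive CD4+ T cells polarized with IL-23, and CD45+ cells were sorted from the spinal cord for droplet sequencing. The recipients were young (8 to 12 weeks of age) or middle-aged (40 to 44 weeks) and were taken on day 6 or day 10 posttransfer, with 1 library of 4 pooled spinal cords for each age and day. No untreated animals were in the single-cell libraries, and transferred and host T cells were not told apart. The 2 bulk libraries held microglia of the spinal cord of young and of middle-aged mice, labelled naive and untreated, with 1 library per age.

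GM-CSF is a secreted growth factor that activates granulocytes, monocytes, macrophages and dendritic cells, and T cells that make it are known for driving inflammation of the central nervous system in EAE. The alpha chain binds GM-CSF with low affinity and is specific to it, whereas the common beta chain adds affinity, carries the signal through JAK2 and STAT5, and is shared with the receptors for IL-3 and IL-5. The mouse has a second beta chain gene, *Csf2rb2*, whose product is known chiefly as a partner of the IL-3 receptor.

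The 4 single-cell libraries held 8315 to 10026 cells and 57337626 to 69859331 UMIs (unique molecular identifiers, 1 for each transcript molecule that was captured), with library medians of 4704.5 to 6196 UMIs per cell, and 154 of 37903 different cell barcodes occurred in 2 or more libraries. The deposited cluster numbers came without cell types. By their markers cluster 2 was T cell-like, clusters 0, 3 and 6 neutrophil-like, clusters 1 and 5 monocyte/macrophage-like, cluster 4 B cell-like, cluster 7 dendritic cell-like, cluster 9 NK cell-like and cluster 10 microglia-like. None of the 12 neutrophil markers was among the 10 leading genes of cluster 0, although all 12 were detected there. Cluster 8 led in microglia markers, but none was among its 10 leading genes and its cells were shallow, so it was left unnamed, as were clusters 11 to 15.

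The genes lie on 3 chromosomes of the GRCm38 build. *Csf2* (ENSMUSG00000018916) occupies chr11:54247271-54249667 on the minus strand, with its neighbour *Il3* 15635 bases away. *Csf2ra* (ENSMUSG00000059326) lies at chr19:61223957-61228429 on the minus strand. *Csf2rb2* (ENSMUSG00000071714), at chr15:78282507-78305721 on the minus strand, and *Csf2rb* (ENSMUSG00000071713), at chr15:78325752-78353847 on the plus strand, are neighbours with 20030 bases between them. An antisense gene, *Gm12223*, overlaps *Csf2*, and each beta chain gene overlaps a miRNA gene.

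The beta chain genes are near-identical copies, which bears on how far their UMIs and reads can be told apart. Over 2628 aligned coding bases they were 95.2% identical, and 18.9% of all 50-base words of the *Csf2rb* transcript also occurred in that of *Csf2rb2*. In the last 500 bases of both transcripts, from which the droplet method reads, no 50-base word was shared. The stretch of coding exon 4 where they differ most is shown as printed from the genome, 90 bases long, with capitals at the 16 bases that differ. It lies at chr15:78338897-78338986 (plus strand) in *Csf2rb* and at chr15:78294345-78294434 (minus strand) in *Csf2rb2*.
Csf2rb: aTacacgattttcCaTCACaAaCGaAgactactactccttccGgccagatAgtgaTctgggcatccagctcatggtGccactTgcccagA
Csf2rb2: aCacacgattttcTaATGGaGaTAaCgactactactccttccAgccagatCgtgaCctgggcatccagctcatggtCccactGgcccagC

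The promoters of 3 members are shown because the ligand and the receptor chains were found in different cells (RefSeq, GRCm38.p6, 250 bases before to 50 after the annotated start, 5′ to 3′ on the gene's own strand). RefSeq held no promoter entry for *Csf2rb* among the sequences used here. Capitals mark GGAAA in *Csf2*, the core letters of sites for NFAT, a factor activated by T cell receptor signalling, and GAGGAA or its reverse complement TTCCTC in the receptor genes, the core letters of sites for PU.1, a factor of myeloid cells. Both strands were searched.
Csf2, chr11:54249850-54250149: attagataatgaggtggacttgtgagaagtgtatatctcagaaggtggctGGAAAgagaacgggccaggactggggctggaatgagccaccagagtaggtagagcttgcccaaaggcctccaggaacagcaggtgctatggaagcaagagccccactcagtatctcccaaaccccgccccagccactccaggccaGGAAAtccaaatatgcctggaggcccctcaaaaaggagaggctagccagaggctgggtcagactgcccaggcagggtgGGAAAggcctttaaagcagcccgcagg
Csf2ra, chr19:61228369-61228668: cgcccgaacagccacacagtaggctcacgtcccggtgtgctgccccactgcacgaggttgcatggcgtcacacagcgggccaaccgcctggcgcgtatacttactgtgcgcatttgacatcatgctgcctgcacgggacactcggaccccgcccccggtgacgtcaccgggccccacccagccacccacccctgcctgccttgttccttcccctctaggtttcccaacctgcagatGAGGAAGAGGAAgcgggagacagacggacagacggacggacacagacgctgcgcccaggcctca
Csf2rb2, chr15:78305672-78305971: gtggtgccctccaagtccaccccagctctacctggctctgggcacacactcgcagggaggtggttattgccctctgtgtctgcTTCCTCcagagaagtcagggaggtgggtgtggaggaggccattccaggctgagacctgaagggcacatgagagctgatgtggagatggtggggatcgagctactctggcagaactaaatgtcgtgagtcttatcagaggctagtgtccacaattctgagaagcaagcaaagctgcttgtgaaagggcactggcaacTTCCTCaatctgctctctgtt
The *Csf2* window held 3 copies of GGAAA and 0 of GAGGAA. *Csf2ra* held 2 copies of GAGGAA, side by side, and 1 of GGAAA. *Csf2rb2* held 2 copies of GAGGAA, both on the other strand, and 0 of GGAAA. These letters are common, as 61.3% of 32851 promoters of the same length held GGAAA and 28.3% held GAGGAA on either strand, and the match is a description of these windows alone. The RefSeq start of *Csf2* lies 232 bases upstream of the GENCODE start. The *Csf2* window shown therefore ends before the GENCODE start and does not hold the bases next to it.

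Csf2 transcripts were concentrated in the T cell-like cluster 2. In UMIs per 1000000 UMIs of the cluster and library (CPM), *Csf2* stood at 51.5 in young and 211 in middle-aged recipients on day 6 and at 350 and 196 on day 10, from 365, 1451, 4851 and 3024 UMIs. The mean over the 4 libraries was 202 ± 122 CPM (SD, n = 4). The young day 6 library was lowest and the young day 10 library highest, with both middle-aged libraries between them. The unnamed cluster 11, which led in basophil and dividing cell genes, had 0 *Csf2* UMIs in the young day 6 library and 188, 138 and 97.3 CPM in middle-aged day 6, young day 10 and middle-aged day 10. The monocyte/macrophage-like cluster 5 followed, at 15.4 and 37.1 CPM on day 6, and at 81.6 and 55.3 CPM on day 10 (the young value is given before the middle-aged one here and below). In all other clusters with 50 or more cells in each library the level was at most 16.6 CPM, apart from 125 CPM in NK cell-like cluster 9 on day 10 in young recipients. There, 111 of 115 UMIs came from 1 cell.

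**Figure D1:**
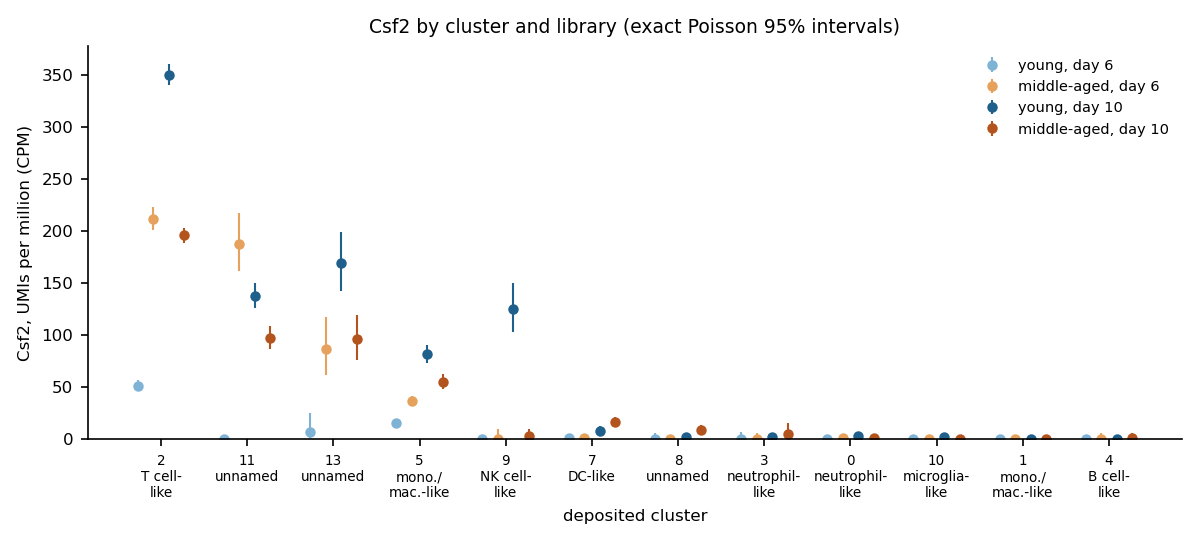
Csf2 level (CPM, linear axis) by deposited cluster, the smaller cluster 13 included, with 1 point per library, colored by age and day, and exact Poisson 95% intervals for counting error. Cluster 2 stands highest on average at 202 CPM, with the young day 6 library (51.5) below the other 3 (196 to 350).

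Nearly all Csf2 UMIs of each library were in cells that also carried T cell receptor transcripts. Cells with 2 or more UMIs of *Cd3d*, *Cd3e*, *Cd3g*, *Trac*, *Trbc1* and *Trbc2* held 99% and 98.5% of all *Csf2* UMIs of the library on day 6 and 98.8% and 99.2% on day 10. In cluster 5 such cells were 13.1% and 16.4% of all cells on day 6 and 30.3% and 49.4% on day 10, and held 120 of 120, 244 of 251, 348 of 353 and 231 of 232 *Csf2* UMIs. In cluster 11 they held all 183 and 287 UMIs of the middle-aged libraries and 477 of 499 of the young day 10 library. In dendritic cell-like cluster 7 they held 7 of 9 and 5 of 5 UMIs on day 6 and 12 of 15 and 46 of 50 on day 10. The few *Csf2* UMIs of clusters 0 and 1 lay almost all in other cells, at 1 UMI per positive cell. In cluster 0 cells with T cell receptor UMIs held 0 of 1 and 1 of 11 on day 6, and 0 of 14 and 0 of 6 on day 10. In cluster 1 they held 0 of 1 and 0 of 11 on day 6, and 0 of 18 and 0 of 12 on day 10. No doublet caller was run, and whether such droplets held more than 1 cell was not tested. In edgeR's quasi-likelihood test *Csf2* was higher on day 10 in cluster 5 (log2 fold change 1.17, adjusted p = 0.0112), where 25.5% of all genes tested passed in either direction. In cluster 7 the log2 fold change of *Csf2* was 2.81. There *Csf2* met the filter of 10 or more UMIs in 2 or more libraries only through the day 10 libraries, where it was high. Its call for day in cluster 7 is therefore no support for a rise. Of 15 and 50 *Csf2* UMIs of cluster 7 on day 10, 11 and 16 were in a single cell. In cluster 5 the value was 2.13 without either middle-aged library and 0.27 without either young library, and DESeq2 did not call it (1.18).

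Within cluster 2 a small number of cells held most of the message. *Csf2* was found in 49 of 1307 and 133 of 1137 cells on day 6 and in 398 of 1923 and 389 of 2463 cells on day 10. The cell with the most *Csf2* held 106 and 197 UMIs on day 6, which is 29.0% and 13.6% of the cluster's total, and 361 and 91 on day 10, which is 7.44% and 3.01%. The 10 highest cells together held 78.1% and 48.7% on day 6 and 27.5% and 19.9% on day 10. Fewer cells thus carried the total in both day 6 libraries than in both day 10 libraries, and the young day 6 value rests on the fewest cells of all. With fewer positive cells on day 6, the 10 highest were also a larger part of them. Cells with 10 or more *Csf2* UMIs numbered 7, 37, 125 and 96 in young day 6, middle-aged day 6, young day 10 and middle-aged day 10, and held 71.2%, 81.7%, 83.7% and 73.6% of the UMIs. Among positive cells the median was 2 and 3 UMIs on day 6 and 4 and 3 on day 10.

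**Figure D2:**
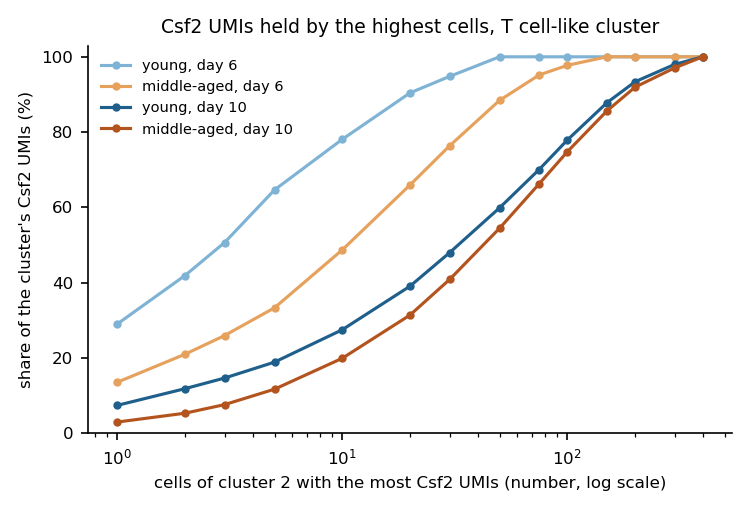
Cumulative share of the Csf2 UMIs of cluster 2 (percent, linear axis) against the number of cells, ranked from the highest (log axis), with 1 line per library. The 10 highest cells hold 78.1% in the young day 6 library and 19.9% in the middle-aged day 10 library.

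To compare shares of positive cells at one depth, each cell was thinned to 2000 UMIs and shallower cells were left out. *Csf2* was then detected in 2.51% (exact binomial 95% interval 1.72 to 3.52) and 8.40% (6.83 to 10.2) of cluster 2 cells on day 6, and in 14% (12.4 to 15.6) and 10.1% (8.87 to 11.3) on day 10. Without thinning the shares were 3.75%, 11.7%, 20.7% and 15.8% in the same order. The order of the 4 libraries was the same in both. B cell-like cluster 4 was taken for comparison. Thinned *Csf2* was found there in 0 of 274 (young) and 0 of 162 cells (middle-aged) on day 6. On day 10 it was found in 0 of 422 (young) and 1 of 314 cells (middle-aged). The counts of 0 allow shares of up to 1.09%, 1.85% and 0.711%. Neutrophil-like cluster 0 had shares of 0.0971% and 0.287% on day 6, and of 0.859% and 0.335% on day 10, below those of cluster 2 in every library. Median depths of the clusters before thinning ran from 4715 to 6225 UMIs in cluster 2 and from 2402 to 2997 in cluster 4. All intervals here cover counting error only.

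The age and day ratios of Csf2 in cluster 2 did not point 1 way. Middle-aged over young gave a log2 ratio of 2.04 (exact conditional 95% interval 1.87 to 2.21) on day 6 and -0.84 (-0.90 to -0.77) on day 10. That of day 10 over day 6 was 2.76 (2.61 to 2.92) in young and -0.11 (-0.20 to -0.02) in middle-aged recipients. Each ratio compares 2 libraries, has no replicate check, and its interval holds no variation between mice. In edgeR's quasi-likelihood test with day and age as terms, which leaves 1 residual degree of freedom, *Csf2* did not pass for age (log2 fold change 0.56, adjusted p = 1.0, where 0.0616% of all genes passed) or for day (1.40, adjusted p = 0.0695, where 7.22% passed). The day value was 2.94 without either middle-aged library and -0.08 without either young library, and the age value 2.11 without either day 10 library and -0.91 without either day 6 library. The day call depended on the fit, since adjusted p was 0.0207 with RLE size factors, 0.0252 with total UMIs and 1.0 in DESeq2. The 1 residual degree of freedom is the difference of the age effect between the days, so opposite age ratios on the 2 days count as spread here. For *Csf2* the ratios were opposite, so a missed threshold does not show that age or day made no difference. The fit also moderates this spread over all genes of the cluster. P-values of this kind hold no spread between mice, and any difference in handling between the 4 libraries enters them.

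Csf2-positive T cells differed from Csf2-negative ones in the other transcripts they held. After thinning, *Ifng*, the cytokine of Th1 cells, was detected in 56.3% of positive and 12.1% of negative cells of cluster 2 in the young day 6 library and in 50% and 16.9% in the middle-aged day 6 library. On day 10 the shares were 42.7% and 20.0% in young and 40.9% and 15.8% in middle-aged recipients. *Bhlhe40*, a transcription factor known to be needed for GM-CSF production by T cells, was detected in 68.8% and 24.1% (young) and 54.3% and 31.3% (middle-aged) on day 6, and in 65.6% and 42.9% and 74.3% and 43.0% on day 10. Both genes were found more often in the positive cells in 4 of 4 libraries. *Tnf* was detected in 25.0% to 41.2% of positive and 5.95% to 14.6% of negative cells. *Il17a*, the signature cytokine of Th17 cells, was found in 6.25% to 17.7% of positive and 2.33% to 9.29% of negative cells, again higher among the positive cells of each library. *Cd8a*, a marker of cytotoxic T cells, was found in 0 of 32 and 0 of 92 positive cells on day 6, which allows shares of up to 9.38% and 3.26%, and in 0.763% and 0.422% on day 10, against 3.68% to 8.37% of negative cells. *Il2*, a growth factor of T cells, was found in 3.05% to 6.52% of positive and 1.21% to 1.69% of negative cells. *Tbx21*, the Th1 transcription factor, was found in 6.25% to 11.8% and 4.67% to 5.71%, and *Cd4* in 30.4% to 49.8% and 27.8% to 34.3%. Each was higher among positive cells in 4 of 4 libraries, but *Cd4* was nearly equal in the middle-aged day 6 library (30.4% and 30.3%). In the young day 6 library *Il17a*, *Il2* and *Tbx21* each rested on 2 of 32 positive cells, below the floor of 3. *Trdc*, of gamma-delta T cells, was lower among positive cells in 4 of 4 libraries (0% to 3.13% against 2.69% to 4.10%). It rested on 0 to 2 positive cells in each. On day 6 its floors of 9.38% and 3.26% lay above the negative shares of 4.10% and 2.69%, so no direction was resolved there. *Il17f*, *Il22*, *Il23r*, *Il1r1* and *Il3* were found in at most 9.92% of positive cells and had no single direction over the libraries. The receptor chains were found in 0% to 3.26% of positive cells. Positive cells had been deeper before thinning, with medians of 6544 to 8500 UMIs against 4668.5 to 5701 in negative cells, and the part of this in the shares was not tested.

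*Il3* and *Il5*, the ligands that share the beta chain with GM-CSF, were nearly missing from the same cells. In cluster 2, *Il3* had 0 and 4 UMIs on day 6 and 95 and 0 on day 10, and *Il5* had 0 and 10 on day 6 and 0 and 0 on day 10. The 95 *Il3* UMIs of the young day 10 library were in 3 of 398 *Csf2*-positive and 0 of 1525 *Csf2*-negative cells, without thinning.

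The receptor chains had the opposite distribution to their ligand. In cluster 2, *Csf2ra* stood at 6.07 and 5.10 CPM on day 6 and 6.13 and 4.14 on day 10, *Csf2rb* at 2.45 to 6.27 and *Csf2rb2* at 1.75 to 1.98. By the mean over libraries cluster 2 was the lowest, for each chain, of the 11 clusters that had 50 or more cells in each library. In thinned cells of cluster 2 the chains were detected in 0.314% to 1.64% of cells, and in cluster 4 in 0.318% to 5.10%, against 16.9% to 54.0% in cluster 1.

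*Csf2ra*, the chain specific to GM-CSF, stood highest in clusters 1, 3, 5, 10 and 0. Its mean over the 4 libraries was 290 ± 40.6 CPM in monocyte/macrophage-like cluster 1, 270 ± 33.0 in neutrophil-like cluster 3, 237 ± 45.95 in monocyte/macrophage-like cluster 5, 225 ± 48.4 in microglia-like cluster 10 and 217 ± 23.6 in neutrophil-like cluster 0 (SD, n = 4). The ranges of neighbours in this order overlapped. Dendritic cell-like cluster 7 (179 ± 11.8) lay below cluster 0 in every library, and it overlapped with cluster 8 (141 ± 28.9). The lower clusters were cluster 11 at 62.7, B cell-like cluster 4 at 12.6, NK cell-like cluster 9 at 10.9 and T cell-like cluster 2 at 5.36 CPM. Cluster 1 held 55.7% and 60.0% of all *Csf2ra* UMIs on day 6 and 49.6% and 58.6% on day 10.

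*Csf2rb*, the signalling chain, stood highest in clusters 3, 0 and 5 and differed most between libraries there. In cluster 3 it stood at 1292 and 983 CPM on day 6 and at 164 and 373 on day 10. In cluster 0 it stood at 851 and 614 and then at 362 and 415. In cluster 5 it stood at 763 and 732 and then at 306 and 339. In all 3 clusters both day 6 libraries lay above both day 10 libraries. Cluster 1 showed the same order at lower levels, with 461 and 436 CPM on day 6 and 286 and 272 on day 10. Cluster 7 went from 280 and 303 to 188 and 249 and cluster 8 from 158 and 176 to 95 and 89.7. Microglia-like cluster 10 stood at 213 and 248 CPM on day 6 and 207 and 197 on day 10, and its whole range over 4 libraries was narrower than that of any other of these clusters. By its mean the order was cluster 3 (703 ± 525), 0 (561 ± 222), 5 (535 ± 246), 1 (364 ± 98.7), 7 (255 ± 49.6) and 10 (216 ± 21.9), with the ranges of all neighbours overlapping, and then cluster 8 (130 ± 43.8), which lay below cluster 10 in every library.

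*Csf2rb2*, the chain associated with the IL-3 receptor, was held mostly by clusters 1, 0 and 5. It stood at 126 and 139 CPM on day 6 and 102 and 93.6 on day 10 in cluster 1, at 132 and 144 and then 82.1 and 89.8 in cluster 0, and at 124 and 145 and then 59.7 and 67.4 in cluster 5. In cluster 3 it stood at 52.6 and 71.3 and then at 13.4 and 37.8. Again both day 6 libraries lay above both day 10 libraries in each of these clusters. In cluster 10 the level was flat, at 61.4 and 66.3 on day 6 and 65.2 and 65.2 on day 10. The UMI levels of different genes are not compared with each other here, since they are not per length.

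**Figure D3:**
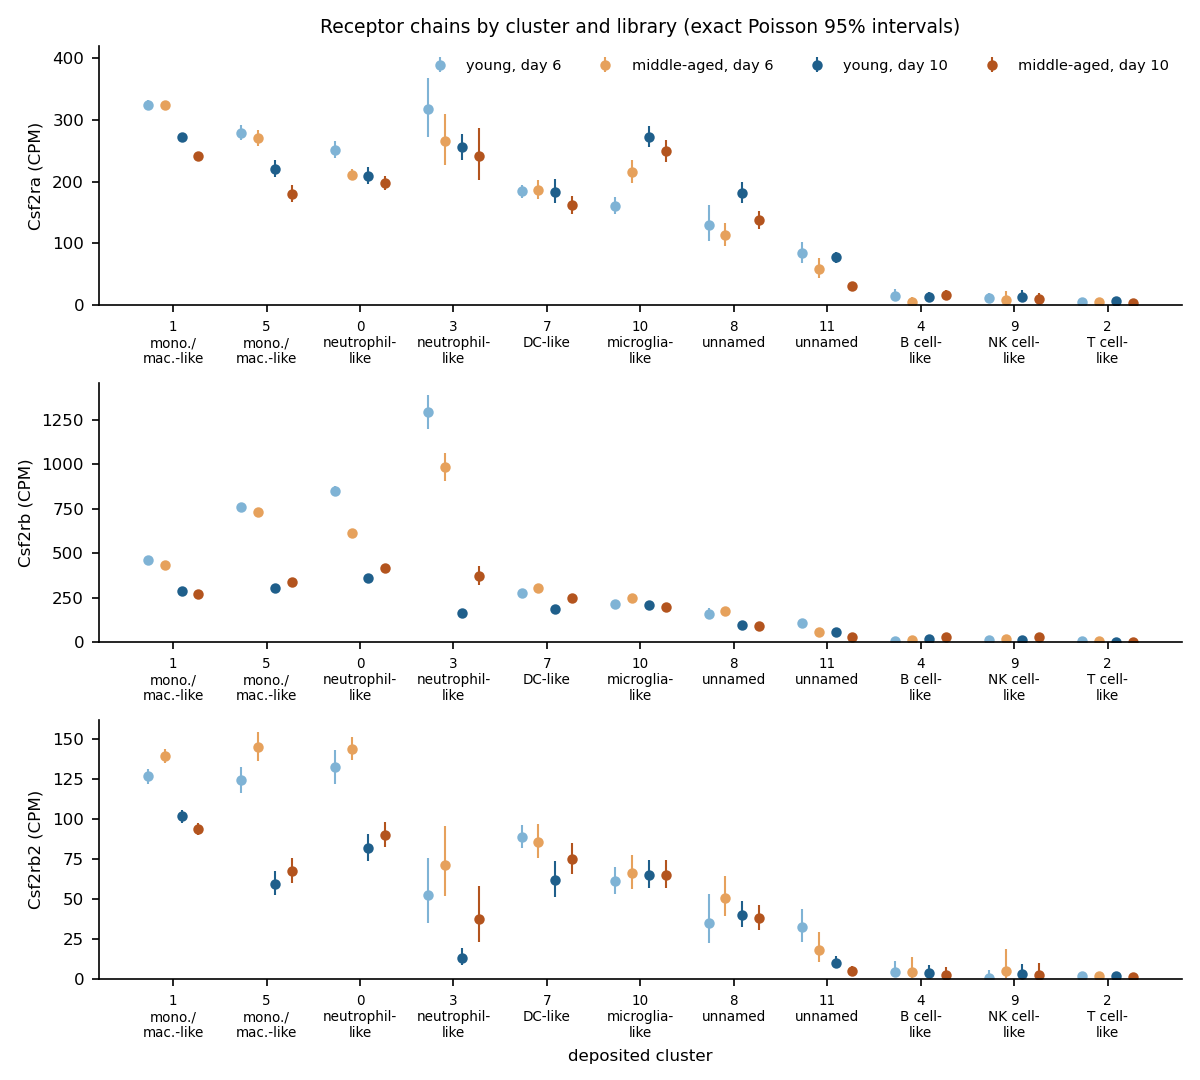
Levels of Csf2ra, Csf2rb and Csf2rb2 (CPM) in 3 panels, by cluster, with 1 point per library colored by age and day and exact Poisson 95% intervals for counting error. Csf2rb in clusters 0, 3 and 5 separates by day (614 to 1292 CPM on day 6, 164 to 415 on day 10), while T cell-like cluster 2 is at or below 6.27 CPM for all 3 chains.

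Alpha and beta chain were found in the same cell in part of the cells of the myeloid clusters. After thinning to 2000 UMIs, a UMI of *Csf2ra* together with one of *Csf2rb* or *Csf2rb2* was found in 28.8% and 29.0% of cluster 1 cells on day 6 and in 21.5% and 19.5% on day 10. In cluster 5 the shares went from 30.9% and 30.8% to 14.2% and 14.9%, in cluster 3 from 35.6% and 29.3% to 12.1% and 22.4%, and in cluster 0 from 25.7% and 22.1% to 16.3% and 17.0%. All 4 of these clusters had lower shares in both day 10 libraries than in both day 6 libraries. Cluster 10 went from 9.49% and 14% to 16.8% and 13%, with the days overlapping. The share was at most 0.474% in cluster 4 and lower still in cluster 2. In cluster 1, *Csf2ra* without a beta chain was found in 17.6% and 17.2% of cells on day 6 and 19.8% and 19.1% on day 10. A beta chain without *Csf2ra* was found there in 33.8% and 32.8% on day 6 and 28.4% and 29.0% on day 10. Whether the joint shares differed from those of independent detection was not tested.

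The day comparison asks how the chains stood at day 10 against day 6 within each kind of responding cell. Across the 7 myeloid clusters fitted, 11 of 21 receptor chain values passed edgeR's quasi-likelihood test (Benjamini-Hochberg adjusted p below 0.05), 10 of them lower and 1 higher on day 10. All 3 chains fell in clusters 0 and 5. *Csf2rb* and *Csf2rb2* fell in clusters 1 and 3. *Csf2ra* rose in cluster 8. No chain passed in clusters 7 and 10. Passing was common among all genes, at 54.4% in cluster 0, 29.9% in cluster 1, 17.8% in cluster 3, 25.5% in cluster 5, 6.48% in cluster 7, 13.4% in cluster 8 and 6.64% in cluster 10, so that a call in cluster 0 says little about the chains in particular.

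*Csf2rb* had the lowest fold change of the 3 chains in each of the 7 clusters, a difference between chains that was not tested. Its log2 fold change of day 10 over day 6 was -2.44 in cluster 3 (adjusted p = 0.000533), -1.66 in cluster 0 (6.19e-07), -1.50 in cluster 5 (4.40e-06) and -0.85 in cluster 1 (0.00648), by edgeR's quasi-likelihood test. It missed the threshold in cluster 8 (-0.58, adjusted p = 0.0595) and cluster 7 (-0.49, 0.163) and was -0.03 in cluster 10 (0.949). Within each age, the log2 ratio of CPM in cluster 3 was -2.98 (95% interval -3.17 to -2.80) in young and -1.40 (-1.63 to -1.17) in middle-aged recipients. In cluster 1 these ratios were close to each other, at -0.69 (-0.74 to -0.64) and -0.68 (-0.73 to -0.64). In cluster 10 they were -0.04 (-0.19 to 0.11) and -0.33 (-0.49 to -0.16).

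*Csf2rb2* followed, at -1.68 in cluster 3 (adjusted p = 0.00726), -1.44 in cluster 0 (5.16e-07), -1.37 in cluster 5 (3.27e-05) and -0.61 in cluster 1 (0.0316). DESeq2 did not call it in cluster 3 (-1.68) or cluster 1 (-0.63), and in cluster 1 it was not called without a filter on low counts (-0.62), without cells with another lineage's markers (-0.61) or with total UMIs (-0.44). *Csf2ra* was lower in cluster 0 (-0.94, adjusted p = 2.42e-05) and cluster 5 (-0.75, 0.00356) and missed the threshold in cluster 1 (-0.50, 0.0768) and cluster 3 (-0.46, 0.236), all by the same edgeR test. In cluster 8 it was higher (0.65, adjusted p = 0.0335), a call that was lost in DESeq2 (0.66), with total UMIs (0.37) and without cells with T cell receptor UMIs (0.70). In the same cluster the summed monocyte and macrophage markers, 9 of 9 detected, went from 751 and 1609 CPM on day 6 to 7756 and 6193 on day 10, and the summed microglia markers, 9 of 9 detected, from 6035 and 3941 to 2648 and 3210. The part of these shifts in the day values of cluster 8 was not tested. In cluster 10 its edgeR log2 fold change of 0.63 missed the threshold (adjusted p = 0.135), although the 2-library ratio was 0.76 (0.61 to 0.91) in young and 0.21 (0.04 to 0.37) in middle-aged recipients.

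**Figure D4:**
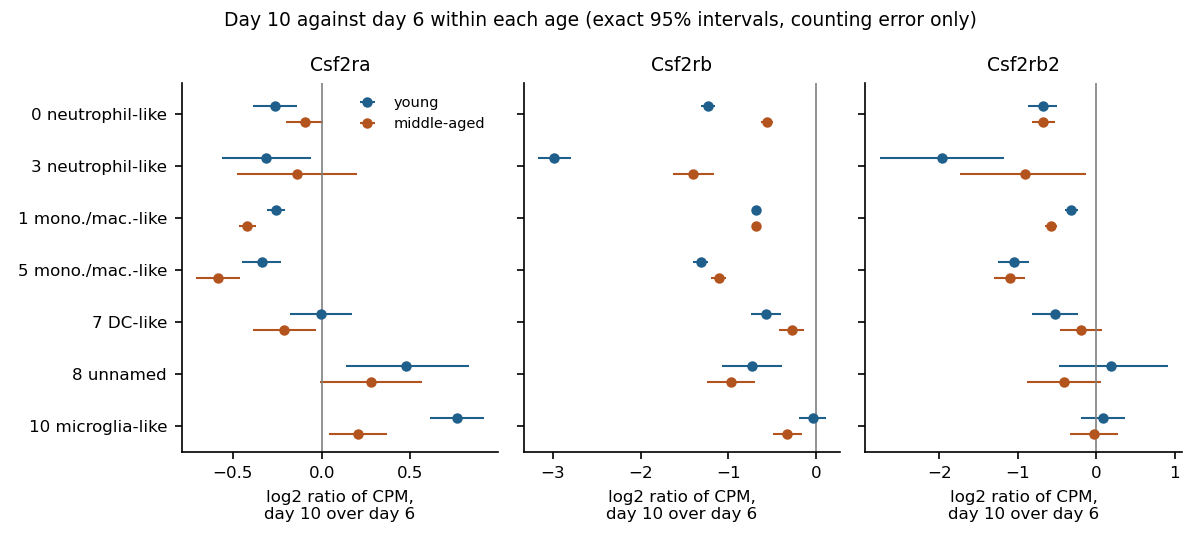
Log2 ratio of day 10 over day 6 CPM for each receptor chain (3 panels) in 7 clusters, with 1 point for young and 1 for middle-aged recipients and exact conditional 95% intervals for counting error. Csf2rb lies below 0 in every cluster and both ages, from -2.98 in cluster 3 of young recipients to -0.04 in cluster 10 of young recipients.

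These fold changes are relative to the other genes of the cluster, and the choice of scaling moved them. With TMM factors the median of all genes lay between -0.01 and 0.08 in every fit. With total UMIs alone it lay at 0.84 in cluster 0, 0.34 in cluster 5, 0.28 in cluster 3, 0.19 in cluster 1, 0.10 in cluster 7, -0.15 in cluster 10 and -0.29 in cluster 8, and the percent of day calls that were higher went from 49.9 to 85.0 in cluster 0, from 40 to 73.1 in cluster 5, from 25.5 to 44.5 in cluster 3, from 49.3 to 65.2 in cluster 1, from 29.7 to 43.4 in cluster 7, from 48.5 to 20.8 in cluster 8, from 47.9 to 27.9 in cluster 10 and from 55.0 to 43.1 in T cell-like cluster 2. On that scale *Csf2rb* still fell in clusters 0 (-0.90, adjusted p = 2.40e-05), 1 (-0.69, 0.0183), 3 (-2.18, 4.87e-05), 5 (-1.21, 4.77e-05) and also 8 (-0.86, 0.0153), and *Csf2rb2* in clusters 0, 3 and 5. *Csf2ra* in clusters 0 (-0.18, adjusted p = 0.216) and 8 (0.37, 0.213) and *Csf2rb2* in cluster 1 (-0.44, 0.0907) no longer passed. No chain with a call in either fit changed its direction. Each of the 11 calls also kept its direction with any 1 library left out, where no test remains, and *Csf2rb* in cluster 3 then ran from -3.03 to -1.83.

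Marker transcripts of other cell types also differed between the libraries of a cluster. The summed neutrophil markers, 12 of 12 detected, stood at 7455 and 6193 CPM on day 6 and 17468 and 6962 on day 10 in cluster 5, and at 4139, 2963, 5753 and 2136 in cluster 1. They were highest in the young day 10 library in both, and in cluster 1 they were lower on day 10 than on day 6 in middle-aged recipients. Summed monocyte and macrophage markers, 9 of 9 detected, went from 2975 and 2633 CPM on day 6 to 5185 and 5426 on day 10 in neutrophil-like cluster 0, and from 560 and 1108 to 2950 and 2683 in neutrophil-like cluster 3. T cell markers in cluster 5, 9 of 9 detected, stood at 373 and 485 CPM on day 6 and 1109 and 1576 on day 10, higher on day 10 in both ages. When cells with T cell receptor UMIs were left out of cluster 5, *Csf2rb* (-1.07) and *Csf2rb2* (-1.26) still passed and *Csf2ra* (-0.46) did not. Cells with T cell, NK cell, B cell, basophil or mast cell, or neutrophil markers were also left out. In cluster 5, 548 and 202 cells of day 6 and 31 and 64 of day 10 then remained. *Csf2ra* (-0.17), *Csf2rb* (-0.58) and *Csf2rb2* (-0.75) did not pass there, while *Csf2ra* was called higher in clusters 8 (1.04) and 10 (0.91). Monocyte and macrophage markers were not used to leave out cells of any cluster. The part of these cells in the day differences was otherwise not tested.

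For age, 0 of 21 receptor chain values passed in edgeR's quasi-likelihood test, in DESeq2 or in any other fit made. Among all genes the shares passing were 0.208% in cluster 0, 0.0982% in cluster 1, 0.929% in cluster 3, 0.655% in cluster 5, 0.466% in cluster 7, 0.0956% in cluster 8 and 0.142% in cluster 10. By the unadjusted value 1 of the 21 lay below 0.05, *Csf2rb2* in cluster 3, with an edgeR log2 fold change of middle-aged over young of 0.97 and an adjusted p of 0.295. In that cluster *Csf2rb2* rested on 13.4 to 71.3 CPM. The 2-library ratios show where the ages parted on 1 day. *Csf2rb* in cluster 3 was lower in middle-aged recipients on day 6 (-0.39, 95% interval -0.55 to -0.24) and higher on day 10 (1.19, 0.93 to 1.44). *Csf2ra* in cluster 10 was higher in middle-aged recipients on day 6 (0.43, 0.25 to 0.60) and within counting error on day 10 (-0.13, -0.27 to 0.01).

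Beyond the members, 25 genes of the pathway were followed, from the partner ligands and receptors through signalling to feedback genes and targets. In cluster 0, 19 were measured, of which 17 were lower and 0 higher on day 10, with a median log2 fold change of -1.08 against 0.08 for all genes, of which 27.2% were lower and 27.2% higher. In cluster 1, 14 of 22 were lower and 0 higher, with a median of -0.79 against 0.03, where 15.2% of all genes were lower and 14.7% higher. In cluster 3, 8 of 16 were lower and 0 higher (median -0.89), where 13.2% of all genes were lower and 4.53% higher. In cluster 5, 10 of 21 were lower and 0 higher (median -0.30), where 15.3% were lower and 10.2% higher. The dendritic cell-like cluster 7 had 3 of 22 lower and 0 higher, where 4.55% of all genes were lower and 1.93% higher. Cluster 8 had 7 of 19 lower and 2 higher, where 6.90% were lower and 6.499% higher. The higher ones include *Ccl17*, which met the count filter there only through the day 10 libraries. Microglia-like cluster 10 had 1 of 20 lower and 1 higher, near the 3.46% lower and 3.18% higher of all genes there. In T cell-like cluster 2, 2 of 20 were lower and 2 higher, where 3.25% of all genes were lower and 3.97% higher. With total UMIs in place of TMM, the counts of lower and higher were 10 and 1 in cluster 0, 11 and 0 in cluster 1, 6 and 1 in cluster 3 and 8 and 2 in cluster 5.

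Among the feedback genes, *Cish* and *Socs1* fell in several clusters. *Cish*, an inhibitor that STAT5 induces, stood in cluster 1 at 94.9 and 121 CPM on day 6 and 34.0 and 28.2 on day 10, and in cluster 3 at 125 and 162 and then 4.63 and 9.01. Its edgeR log2 fold change was -1.96 in cluster 1, -2.90 in cluster 0, -4.69 in cluster 3 and -1.01 in cluster 5, each a call. *Socs1*, which blocks JAK kinases, stood in cluster 1 at 262 and 269 CPM and then at 74.0 and 56.9. It was lower in every cluster fitted, from -4.60 in cluster 3 to -0.79 in T cell-like cluster 2. Both genes kept their direction and their call in cluster 0 with total UMIs (-2.14 for *Cish*, -1.24 for *Socs1*). *Socs2*, another inhibitor that STAT5 induces, passed in none of the 6 clusters where it was tested. It stood at 33.6 and 47.3 CPM on day 6 and 45.8 and 44.5 on day 10 in cluster 1, and at 68.8 and 168 and then 121 and 153 in cluster 7. *Pim1*, a kinase gene induced by STAT5, fell in clusters 0 (-1.26), 1 (-1.39), 3 (-1.45), 5 (-1.13) and 8 (-1.19). Cytokines other than GM-CSF also induce these genes.

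Among the signalling genes *Jak2*, the kinase bound to the beta chain, fell in clusters 0 (-1.08), 1 (-1.33), 3 (-1.46) and 5 (-1.03), and *Lyn*, a Src-family kinase, in clusters 0 (-1.14), 1 (-1.18), 3 (-0.99), 5 (-1.28), 7 (-0.93) and 8 (-0.62). *Il3ra*, the alpha chain of the IL-3 receptor, went the other way in the clusters that led in microglia markers. It stood at 7.27 and 14.7 CPM on day 6 and 16.2 and 26.9 on day 10 in cluster 10 (log2 fold change 1.15) and rose by 1.17 in cluster 8. In T cell-like cluster 2, *Irf4* (0.83) and *Ptpn6* (0.73) rose and *Socs3* fell by 0.80 on the log2 scale. *Ccl17*, a chemokine gene that GM-CSF induces, fell in cluster 1 (-1.94) and had a log2 fold change of 3.46 in cluster 8. In cluster 8 its level was 1.54 and 6.15 CPM on day 6, from 1 and 8 UMIs, and 87.4 and 21.6 on day 10. There *Ccl17* met the filter of 10 or more UMIs in 2 or more libraries only through the day 10 libraries, where it was high. Its call for day in cluster 8 is therefore no support for a rise. The part of the marker shifts of cluster 8, given above, in its *Ccl17* and *Il3ra* values was not tested. *Ccl17* was highest in dendritic cell-like cluster 7, at 1089 and 2309 CPM on day 6 and 1426 and 1678 on day 10. There it was higher on day 10 in young and lower in middle-aged recipients. For age, 1 gene of the list passed in 1 cluster, *Bcl2l1*, which encodes a survival protein, in cluster 3 (1.41, adjusted p = 0.0462 in edgeR's quasi-likelihood test), where 0.840% of all genes were higher. With RLE size factors 0 of the list and 0% of all genes passed there for age. With total UMIs 1 gene of the list passed in cluster 3 and 2 in cluster 7.

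**Figure D5:**
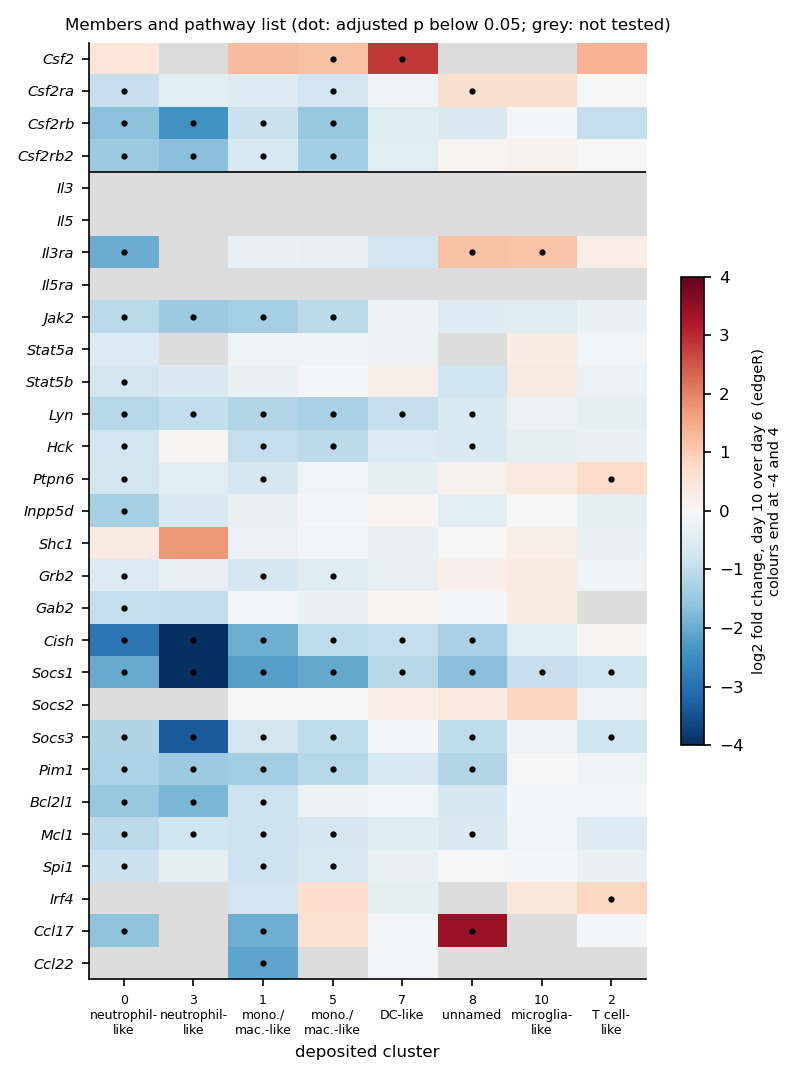
Log2 fold change of day 10 over day 6 (edgeR, color scale) for the members and the 25 pathway genes (vertical axis) by cluster (horizontal axis), with a dot where the adjusted p was below 0.05 and grey where the gene was not tested. Socs1 is lower in all 8 clusters, from -4.60 to -0.79, and Il3ra is higher in clusters 8 (1.17) and 10 (1.15). Csf2 in cluster 7 and Ccl17 in cluster 8 met the count filter only through the day 10 libraries, so their calls are no support for a rise.

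The genes with the most similar patterns were named by the Pearson correlation of log2(CPM + 1) over 52 sums of a cluster in a library, among 5885 genes. These sums share libraries and cells, so the values are a description. For *Csf2* the closest were *Tnfsf11* (0.915), *Ccl1* (0.895), *Cd40lg* (0.882), *Igflr1* (0.873) and *Podnl1* (0.869), of which *Tnfsf11* and *Cd40lg* encode TNF family ligands of activated T cells. For *Csf2ra* they were *App* (0.954), *Ltbr* (0.950), *Sirpa* (0.949), *Lrrc25* (0.943) and *Alox5ap* (0.943). For *Csf2rb* they were *Il13ra1* (0.950), *App* (0.944), *Lrrc25* (0.940), *Skap2* (0.940) and *Gpr35* (0.934), and for *Csf2rb2* *Gpr35* (0.944), *Mpeg1* (0.934), *Ifi207* (0.928), *Tgm2* (0.927) and *Il13ra1* (0.923). Among the members the receptor chains correlated with each other at 0.895 to 0.931 and with *Csf2* at -0.36 to -0.28.

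Naive microglia held all receptor chains and no detected ligand. In bulk libraries of 79373420 (young) and 76293436 (middle-aged) counts, *Csf2* had 0 counts in both, which allows up to 0.0378 and 0.0393 CPM. *Csf2ra* had 6149 and 6895 counts (77.5 and 90.4 CPM), *Csf2rb* 12787 and 11860 (161 and 155 CPM) and *Csf2rb2* 7932 and 7221 (99.9 and 94.6 CPM). Per kilobase of summed exon, *Csf2ra* stood at 27.0 and 31.5 RPKM, *Csf2rb* at 22.1 and 21.4 and *Csf2rb2* at 21.1 and 20.0. The summed exons of *Csf2rb* hold 7277 bases, against 4764 in its transcript compared above. Those of *Csf2rb2* hold 4740, the same as its transcript. The *Csf2rb* value would be higher with the shorter length, so the 3 chains are not ranked against each other. Reads from the shared stretches of the beta chain genes could not be assigned with certainty, so the split between *Csf2rb* and *Csf2rb2* is uncertain.

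Middle-aged over young gave a log2 ratio of 0.22 (exact conditional 95% interval 0.17 to 0.27) for *Csf2ra*, -0.05 (-0.09 to -0.02) for *Csf2rb* and -0.08 (-0.12 to -0.03) for *Csf2rb2*, with a median of -0.01 over 14821 genes. With 1 library per age these ratios have no replicate check. Of the pathway genes with 100 or more counts, *Socs3* had the highest ratio (0.62, 0.59 to 0.64), from 19481 and 28679 counts, followed by *Il3ra* (0.50, 0.25 to 0.75), from 234 and 318. *Cish* was low, at 135 and 145 counts, and *Il3* and *Il5* had 0 counts in both. All 9 microglia markers were detected, with summed levels of 31046 and 29171 CPM. The study sorted these cells as CD45-intermediate and CD11b-positive, a gate that should remove endothelial cells, which lack both proteins. Other marker sums were 711 and 844 CPM for neutrophils, 190 and 83.7 for monocytes and macrophages and 446 and 171 for endothelial cells. Of the neutrophil sum, *Csf3r* alone held 462 and 560 CPM, followed by *Ngp* at 70.3 and 83.9, while *Ly6g* stood at 0.78 and 0.69. *Fn1* alone held 137 and 29.2 CPM of the monocyte and macrophage sum. The part of cells of these types in the ratios was not tested. In bulk samples fewer cells of a type and less RNA per cell cannot be told apart.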

How the data were processed

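The authors made the single-cell libraries with 10x Genomics chemistry, counted UMIs with Cell Ranger 3.1.0 on mm10, filtered cells and clustered them in Seurat after integration of the libraries. The deposited table gives each cell's UMI counts as they were, with no normalization, and its cluster number. For the bulk libraries the authors aligned reads with HISAT2 to GRCm38.p6 and deposited raw read counts per gene from featureCounts in unstranded mode, so reads of *Csf2* and of its antisense gene cannot be told apart. The authors tested single cells, which are not replicates, so their test was not used.

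UMI counts were summed by deposited cluster and library and divided by their total (CPM), with exact Poisson intervals for levels, exact conditional binomial intervals for ratios of 2 libraries and exact binomial intervals for shares (95%, floor of 3 counts). For shares, cells were thinned to 2000 UMIs each. Clusters with 50 or more cells in each library were used for levels. The main test was edgeR 4.0.16 (quasi-likelihood, TMM, limma 3.58.1, R 4.3.3) with day and age as terms over 4 libraries, on genes with 10 or more UMIs in 2 or more libraries, with Benjamini-Hochberg adjustment over all genes of a cluster. It was tested on simulated data. DESeq2 1.42.0, RLE size factors, no filter, removal of cells that held 2 UMIs or more of another lineage's markers (5 for neutrophil markers), leaving out each library, other thinning and other scales were the alternatives. The lineages that counted as other depended on the cluster, and monocyte and macrophage markers were never among them. Total UMIs without TMM and leaving out cells with T cell receptor UMIs were added after the data were seen. Python 3.11.15, NumPy 2.4.6, SciPy 1.17.1, pandas 2.3.3, matplotlib 3.10.9 and Biopython 1.88 were used for the rest.

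Genes were named by a rule, as the 4 members, the called or most changed of 25 pathway genes, 15 partner genes of *Csf2* in T cells (1 of them is not reported here) and the 5 genes most like each member. Members, lists and tests were chosen with earlier results of these data known. Genes in the likeness measure had 100 or more UMIs and 50 CPM or more in 1 sum. Bulk RPKM used the summed exon length of GENCODE vM21. Promoters were RefSeq's on GRCm38.p6, and *Csf2rb* had none among these. Cluster numbers for sub-clustered microglia and the other experiments of the study were not analysed here.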

Additional observations from a re-analysis of the deposited data

Results flagged for a closer look

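In 6 cases the ratio of 2 libraries pointed one way on 1 day or in 1 age and the other way on the other, with intervals that held counting error only. None of these differences was tested, since each group was 1 library.

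*Csf2* in T cell-like cluster 2 had a log2 ratio of middle-aged over young of 2.04 on day 6 and -0.84 on day 10, and of day 10 over day 6 of 2.76 in young and -0.11 in middle-aged recipients. Both statements rest on the same 4 values, of which the young day 6 library came from 49 positive cells.

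*Csf2rb* of middle-aged over young was -0.47 on day 6 and 0.20 on day 10 in neutrophil-like cluster 0, and -0.39 and 1.19 in neutrophil-like cluster 3. The young day 10 library of cluster 3 also had the highest summed neutrophil markers, at 321753 CPM against 160036 to 219550 in the other 3 libraries, and the part of this in the *Csf2rb* value was not tested. *Csf2rb* in monocyte/macrophage-like cluster 5 had ratios of -0.059 and 0.15, but its day 6 ratio was 0.086 in UMIs per cell and 0.017 without cells with T cell receptor UMIs, so the opposite signs were not kept under those settings. *Csf2rb2* in cluster 1 had ratios of 0.14 and -0.12.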

How the results depend on the processing

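No paired analysis was possible because each group was 1 library, and the fit with day and age as terms already compares the days within an age and the ages within a day. For *Csf2* in cluster 2, the day effect of 1.40 did not pass the threshold but passed with RLE size factors (1.39), without a filter on low counts (1.42), without cells with another lineage's markers (1.38) and with total UMIs (1.30), and ran from -0.076 to 2.94 with 1 library left out. The age effect of 0.56 ran from -0.91 to 2.11. These fits of 3 libraries leave no residual degree of freedom and are values without a test. The *Csf2* ratios in cluster 2 moved to -0.0085 without mitochondrial and ribosomal protein genes (day, middle-aged), to 3.18 (day, young) and -1.04 (age, day 10) in UMIs per cell, and to 1.83 without cells with another lineage's markers (age, day 6). Shares of *Csf2*-positive cells in cluster 2 were 1.46%, 6.01%, 9.55% and 6.44% after thinning to 1000 UMIs and 3.75%, 11.7%, 20.7% and 15.8% unthinned (young day 6, middle-aged day 6, young day 10, middle-aged day 10). The cluster with the highest mean level was 5 in place of 3 for *Csf2rb* on the scale of mean log-normalized values and without cells with another lineage's markers, and 5 in place of 1 for *Csf2rb2* in the latter. Ratios that changed sign were *Csf2ra* in cluster 3 (day, young, 0.53 in UMIs per cell), *Csf2ra* in cluster 5 (day, young, 0.13), *Csf2rb* in cluster 8 (day, young, 0.16) and *Csf2rb* in cluster 10 (day, middle-aged, 0.10) without cells with another lineage's markers, and *Csf2rb* in cluster 5 (age, day 6, 0.086 in UMIs per cell and 0.017 without cells with T cell receptor UMIs). The cause was not tested. Receptor chain calls for day numbered 11 of 21 with TMM and with RLE, 10 without a filter, 9 with total UMIs and without cells with T cell receptor UMIs, and 8 in DESeq2 and without cells with another lineage's markers. For age they numbered 0 throughout. Over all genes DESeq2 called fewer for day than edgeR in each cluster, for example 2929 against 5218 in cluster 0 and 138 against 701 in cluster 10, and calls for age ran from 0 to 303 genes per cluster over the fits, against 7 to 68 in edgeR with TMM. All 3 bulk ratios moved by less than their interval under each alternative.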

Other observations

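Deposited clusters too small for the tests also held members. Neutrophil-like cluster 6, with 43 cells in the middle-aged day 6 library and 60, 515 and 83 in young day 6, young day 10 and middle-aged day 10, had *Csf2ra* at 223 and 259 CPM on day 6, and at 226 and 238 CPM on day 10 in young and middle-aged recipients. *Csf2rb* there stood at 447 and 306 CPM on day 6 and 105 and 187 on day 10, and *Csf2* at 1 UMI in all. The unnamed cluster 15, with 4 to 24 cells per library, had 65 *Csf2* UMIs in the young day 10 library, of which 47 were in 1 cell. The unnamed cluster 13, with 34 to 96 cells per library, had *Csf2* at 7.02 and 86.3 CPM on day 6 and 169 and 96.0 on day 10, with the young day 6 library lowest and the young day 10 library highest as in cluster 2, and the receptor chain *Csf2rb* at 327 and 209 and then 114 and 187 CPM. In T cell-like cluster 2, *Cish* stood at 175 and 266 CPM on day 6 and 219 and 199 on day 10.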
